A study of Mus musculus with 5 samples.

Results

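NEUROD2 binding in the embryonic mouse cortex is described here at 7 noncoding genes that were picked for dense binding around their transcription start sites (TSSs): Gm36756, 6430584L05Rik, 4930544F09Rik, 2700046A07Rik, Gm2862, C030013C21Rik and Gm28294. They are not all of the densely bound noncoding genes. At least 4 regions within 5 kb of the TSS were counted at 34 noncoding genes. Of the 7, Gm36756, 4930544F09Rik, 2700046A07Rik and Gm28294 reached that number, 6430584L05Rik and Gm2862 had 3 and C030013C21Rik had 2. The chosen genes are 7 of the 33475 noncoding genes, and of the 55413 genes of all types, in the annotation used. A NEUROD2 peak was given to one of them when its midpoint had that gene's TSS as the closest TSS of any gene type, at a distance of at most 50 kb. This took 135 peaks of the 3 NEUROD2 antibodies, 65 of the 51841 peaks of ab1, 51 of the 35310 of ab2 and 19 of the 7470 of ab3. Merging overlapping peaks gave 64 regions, of 53833 regions in the genome. The genes were chosen from these same peaks, by how many regions lay close to each TSS, so the number, nearness, antibody count and scores of their regions are given as descriptions, without tests.

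All data come from cerebral cortex of BALB/c mouse embryos at embryonic stage E14.5, without any genotype or treatment contrast. Chromatin from pooled embryos was cross-linked, precipitated and sequenced (ChIP-Seq) with antibody ab1, raised in mouse, and with ab2 and ab3, both raised in rabbit. Each antibody gave 1 library and has no biological replicate, so the spread between ab1, ab2 and ab3 is a spread between antibodies. Precipitates with GFP antibodies of both host species served as controls in the authors' peak calling, where ab2 and ab3 shared the rabbit control. The GFP libraries were not analysed here, and the peak lists do not give the reads behind each peak. The score of a peak is 10 times the −log10 p-value of the peak caller. It is not scaled between libraries, so scores are compared within an antibody, and the lowest score the calling allowed was 50.

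NEUROD2 is a neuronal transcription factor of the basic helix-loop-helix family, and it is expressed in differentiating excitatory neurons of the cortex. Factors of this family bind DNA as dimers at the E-box, a short palindrome-like element written CANNTG. Noncoding genes include long intergenic RNAs, RNAs transcribed from the opposite strand of a protein-coding gene or from within its introns, and pseudogenes that are remnants of copied messages. For most of them no function is known, and a closest TSS states a position and not which gene a bound site regulates.

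Of the 64 binding regions of the 7 genes, 63 held an extended E-box, as did 85.6% of all regions of the genome, which were narrower (median width 746 bp against 916.5 bp). This element was read as CAGCTG or CAGATG or CATCTG or CATATG, each followed by G or T, on both strands, where CAGATG and CATCTG are each other's reverse complement and a core read on both strands was counted once. The sites below are 30 bases long in the GRCm38.p6 (mm10) reference, written 5′ to 3′ on the stated strand, with the extended E-box in capitals. The sites of 2700046A07Rik are not printed. For each other gene, the site is the one closest to the midpoint of the region with the highest ab1 score, shown because these are the strongest regions of the genes.
Gm36756, chr12:100990497-100990526, plus strand: tagactcaatcCATCTGTtccgcctcgttt
6430584L05Rik, chr6:55399047-55399076, plus strand: tggcttgctagCAGCTGGagtgcttgctat
4930544F09Rik, chr15:58980914-58980943, plus strand: ggccagcgaagCAGATGTggcctgatagat
Gm2862, chr15:25676573-25676602, plus strand: ttttgtgaacgCAGCTGTttgtgtcgaagg
C030013C21Rik, chr11:80551819-80551848, minus strand: tctgccctatgCAGCTGTccaggcatttgc
Gm28294, chr1:75251721-75251750, plus strand: ctcatgggtggCAGCTGGcagcttgctcac

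A CAGCTG core occurs in 4 of these 6 sites, and the other two carry the CAGATG core, read as CATCTG at Gm36756. They lay 50 bp from the region midpoint at Gm36756, 40 bp at C030013C21Rik, 85 bp at Gm2862 and 15 bp at Gm28294. At 4930544F09Rik the closest site was 133 bp from the midpoint and at 6430584L05Rik it was 468 bp away, so that in those regions the centre itself held no extended E-box. The sites closest to the midpoint of the region nearest to each TSS, shown because the genes were chosen by binding near their starts, had these sequences, and that of Gm28294 is the one already printed.
Gm36756, chr12:100986699-100986728, minus strand: atgtcaggatgCAGCTGTggtatttggggt
6430584L05Rik, chr6:55396902-55396931, plus strand: ctcttgctggaCAGATGGccttcacagagg
4930544F09Rik, chr15:58984320-58984349, plus strand: agcatccttgaCAGATGTtacctggctcgg
Gm2862, chr15:25680462-25680491, minus strand: aggaaggaaggCAGCTGTtcattctcagag
C030013C21Rik, chr11:80508959-80508988, plus strand: ctgcaaggcggCAGCTGTggaaggcagctg

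The 7 genes are of 4 annotated kinds. Gm36756, 4930544F09Rik and Gm28294 are antisense genes, 6430584L05Rik and 2700046A07Rik are long intergenic noncoding RNAs, C030013C21Rik is a sense intronic RNA and Gm2862 is a processed pseudogene. Density was measured as a proximity sum, in which each region bound with at least 2 antibodies and closest to a gene adds a weight that falls exponentially with distance from the TSS, with a decay length of 5000 bp. On this scale Gm36756 stood at 3.09, 4930544F09Rik at 2.84, 6430584L05Rik at 2.83, Gm2862 at 2.80, 2700046A07Rik at 2.79 and Gm28294 at 2.66, against a median of 0.147 over the 8941 noncoding genes that had such a region. These are ranks 1 to 5 and 7 among noncoding genes, with the pseudogene H2af-ps, at 2.71, in between. C030013C21Rik had a sum of 1.89 and ranked 79th, so that the word densest applies to the other 6 genes and C030013C21Rik is described here as one of the 7 chosen. For comparison with other genes, the sum was also taken for each antibody from all of its own peaks, those of a single antibody included. By these 3 sums the most similar other noncoding genes were Gm13673, Gm4889 and Gm20644. Their Euclidean distances from the median of the 7 were 0.480, 0.486 and 0.527. On the scale of at least 2 antibodies they stood at 2.54, 1.80 and 2.54, or ranks 11, 108 and 10.

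**Figure D1:**
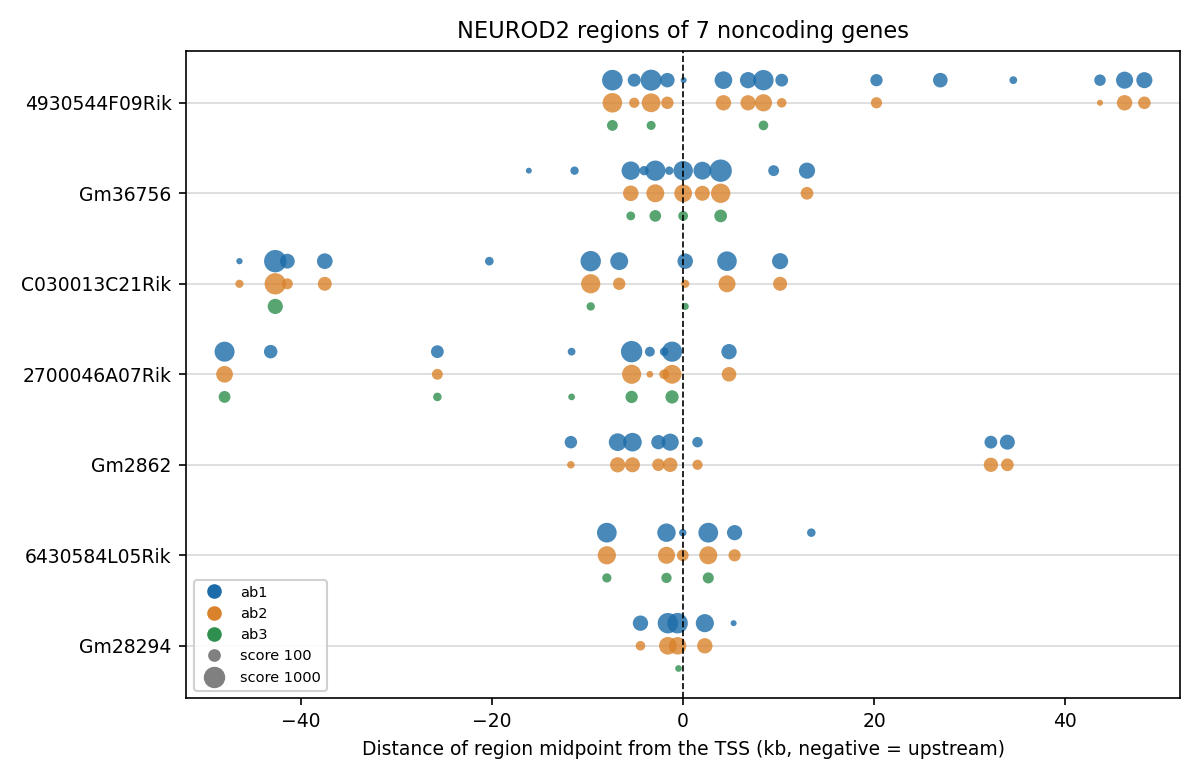
Position of the 64 regions of the 7 noncoding genes relative to each TSS (dashed line, distance in kb, negative upstream), with 1 dot for each antibody that had a peak there and dot area rising with the log of the score. Of the regions, 26 lie within 5 kb of a TSS, and the lowest row of dots, that of ab3, is empty for Gm2862.

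The regions lay on both sides of the TSSs, 36 upstream and 28 downstream. Within 5 kb of a TSS were 26 of the 64, within 10 kb were 40, and 16 were more than 20 kb away. In the genome, 28% of the regions lay within 5 kb of the closest TSS, and since nearness was part of the choice of genes nothing is read from the higher share here. The median distance was 6.08 kb. The regions were 350 to 2155 bp wide with a median of 916.5 bp, against 746 bp for all regions, and together they covered 65.4 kb. Between neighbouring regions of a gene the median gap was 1644 bp. Shorter than 500 bp were 8 of the 57 gaps (14.0%), the shortest being 31 bp. Over the genome the median gap was 16.6 kb, and 5.24% of the gaps were shorter than 500 bp. Many regions near the TSS were what the genes were chosen for, so nothing is read from the closer spacing.

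Binding was called with more than 1 antibody in 52 of the 64 regions, or 81.3% (95% Wilson interval 70.03 to 88.9, which covers counting error only), where 59.9% of all regions of the genome were. All 3 antibodies had a peak in 18 regions (28.1%, interval 18.6 to 40.1), against 13.3% in the genome, and in 8 regions when only peaks that scored at least 100 were counted. Without ab1 the number with at least 2 antibodies was 18, without ab2 it was 19 and without ab3 it was 51, so these counts rest on ab1 and ab2. The choice of genes used regions with at least 2 antibodies, which raises both shares. Among regions with at least 2 antibodies, all 3 were present in 34.6% at the 7 genes and in 22.2% in the genome. Another 33 regions had peaks of ab1 and ab2, and 1 region of 2700046A07Rik had peaks of ab1 and ab3. The remaining 12 regions had a peak of ab1 alone, with scores from 50.1 to 243.6 and a median of 69.8, and 2 of the 12 scored above the median of the ab1 list. Every one of the 64 regions had a peak of ab1. So had most of the 53833 regions of the genome, 4911 with an ab1 score of at least 1000 and 46160 with a lower one.

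Over the 64 regions the highest score of ab1 per region had a median of 302.8 and ran from 50.1 to 3100, where the median of its whole peak list was 149.2. For ab2 the median was 239.9 over 51 regions (50.9 to 2059), against 127.1 in its list. The scores of ab3 had a median of 86.9 over 19 regions (54.7 to 282.3), against 89.4 in its list. A median member region thus stood at percentile 70.2 of the ab1 list, 71.0 of the ab2 list and 48.7 of the ab3 list. Among regions called with at least 2 antibodies, the ab1 median was 435.7 for the 7 genes and 277.7 for the genome, that of ab2 was 239.9 against 140.3, and that of ab3 was 86.9 against 90.5. Within 10 kb of the TSS the ab1 median was 603.9 over 40 regions, against 156.9 over the 24 farther away, and that of ab2 was 296.1 over 35 regions against 151.3 over 16. For ab3 the order was the other way, 86.9 over 15 regions against 98.7 over 4. Regions near the TSS with at least 2 antibodies were what the genes were chosen for, so nothing is read from this split.

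**Figure D2:**
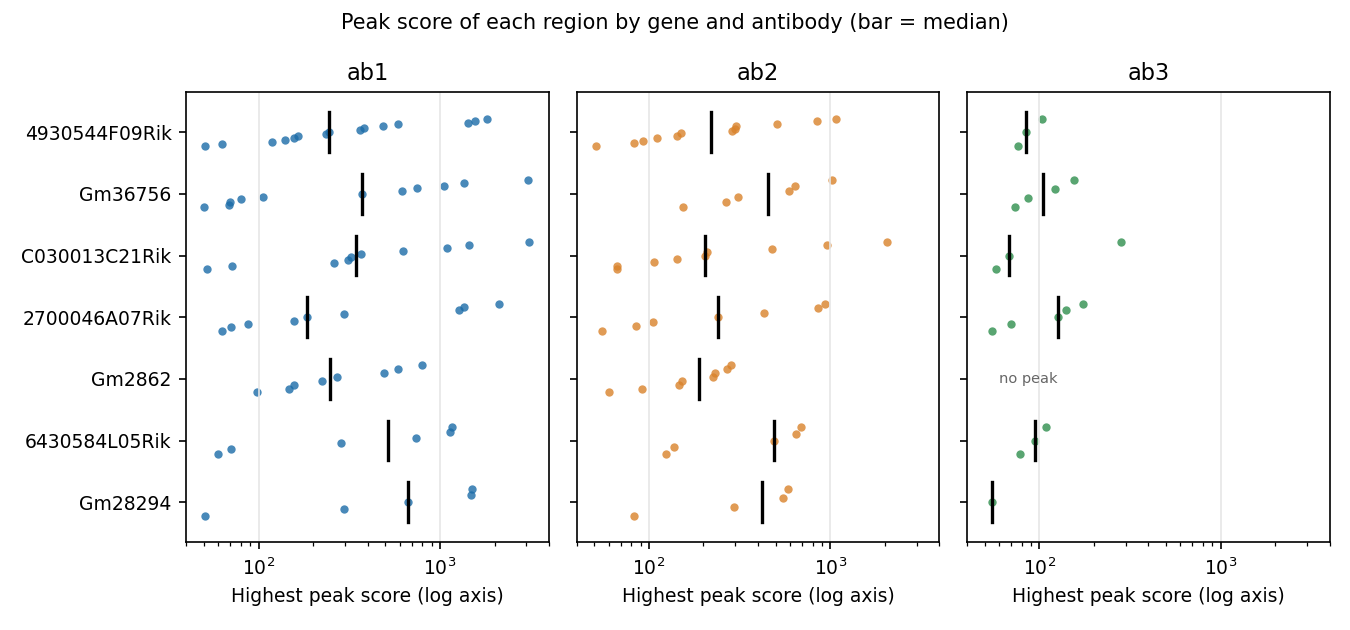
Highest peak score of every region by gene (rows) for ab1, ab2 and ab3 (panels), on a log axis that is shared by the panels, with a bar at the median of each row. The spread within a gene is wide, from 50.1 to 3064 for ab1 at Gm36756, and Gm2862 has no ab3 peak.

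Over the regions they shared, the scores of ab1 and ab2 rose together. Pearson's r of the log10 scores was 0.916 for ab1 and ab2 over 51 regions, with Spearman's rho at 0.924. For ab1 and ab3 it was 0.617 over 19 regions (rho 0.507), and for ab2 and ab3, which also share a control library, 0.624 over 18 regions (rho 0.542). These are coefficients across regions of 7 loci in 1 library per antibody, and regions are not replicates. The score of ab1 was the higher in 47 of the 51 regions it shared with ab2, with a median ratio of 1.90 between these unscaled scores. In the other 4 the ab2 score was higher, and 1 of these was the region on the TSS of 6430584L05Rik. Because the scores are not scaled between libraries, these counts are not read as stronger binding with either antibody.

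**Figure D3:**
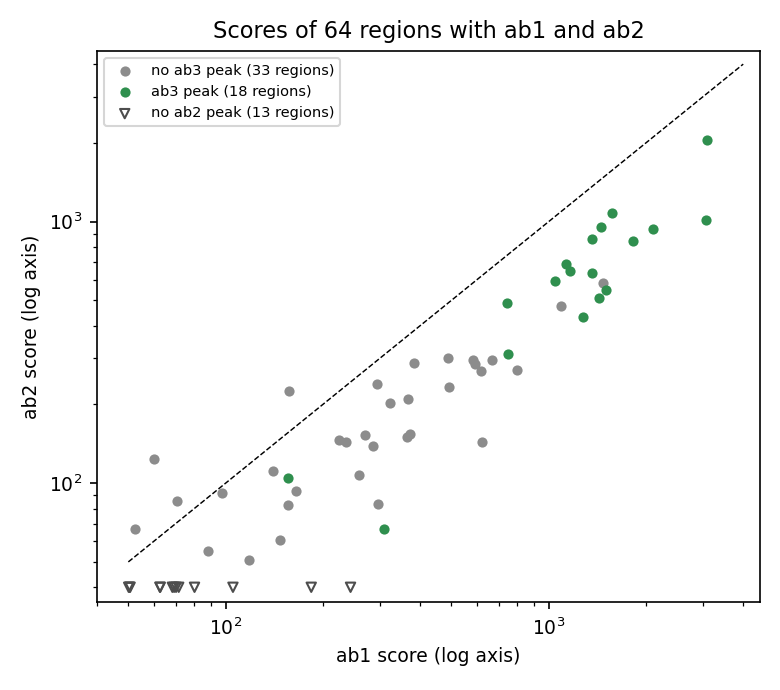
Score of ab1 (x axis) against score of ab2 (y axis) for the regions of the 7 genes, both on log axes, with the line of equal scores dashed, green points for regions that also had an ab3 peak and open triangles at the lower edge for the 13 regions without an ab2 peak. Most of the 18 green points sit at the upper right and 47 of 51 points lie under the line.

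Whether ab3 had a peak went with the ab2 score of the region, at the 7 genes as in the genome. With an ab2 score of 50 to below 100, 1 of 10 regions had an ab3 peak (1.09% in the genome), and at 100 to below 250 it was 1 of 16 (7.73%). At 250 to below 500 the count was 3 of 11 (39.1%), at 500 to below 1000 it was 10 of 11 (81.9%), and at 1000 or more it was 3 of 3 (98.8%). Of the 18 regions with all 3 antibodies, 13 had an ab2 score of at least 500. Gm2862, the pseudogene without any ab3 peak, had ab2 scores of 60.5 to 285.4 in its 8 regions, all in the classes where ab3 peaks were fewer.

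**Figure D4:**
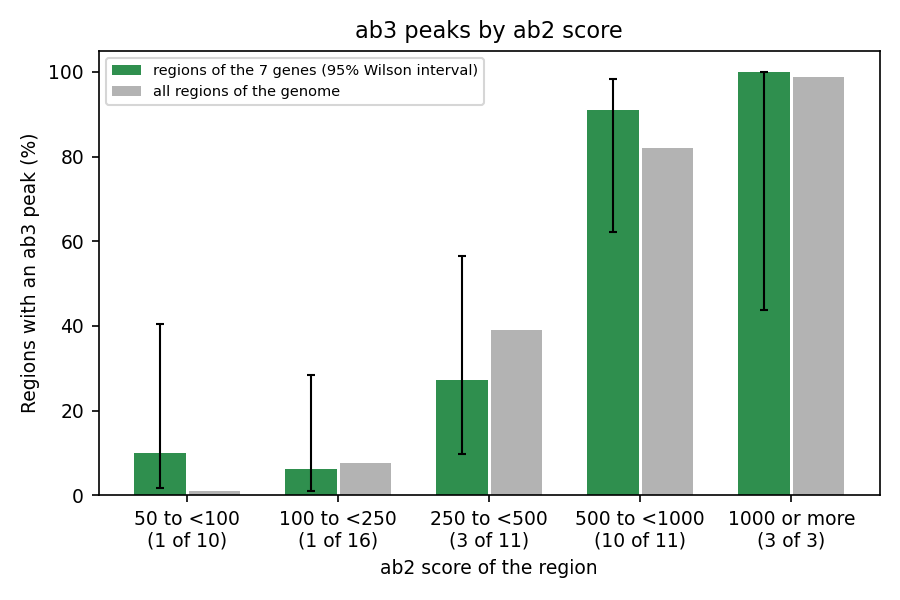
Share of regions with an ab3 peak (y axis, percent) by class of ab2 score (x axis), for the regions of the 7 genes with 95% Wilson intervals in green and for all regions of the genome in grey, with the counts for the 7 genes under each class. The green bars stand at 10.0% and 6.25% in the 2 lowest classes and reach 100% in the highest, where only 3 regions stand behind the bar.

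Strong binding was spread over the loci. A score of at least 1000 with ab1 was reached in 16 of the 64 regions (25%), against 9.52% of all ab1 peaks. These 16 regions lay at 6 of the genes, 3 each at Gm36756, 4930544F09Rik, 2700046A07Rik and C030013C21Rik and 2 each at 6430584L05Rik and Gm28294, whereas Gm2862 had none. Of the 16, 14 had peaks of all 3 antibodies, as had 84.1% of the regions of this strength in the genome. They were wider, with a median of 1239.5 bp against 825 bp for the other 48. Within 10 kb of the TSS were 14 of them, and the other two, at C030013C21Rik and 2700046A07Rik, lay more than 40 kb away.

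Gm36756 (chr12:100986623-101014822, plus strand) had the highest proximity sum. Its TSS lies in intron 3 of Ccdc88c, on the opposite strand, and Ccdc88c encodes a Dishevelled-binding protein of the Wnt pathway. Of its 11 regions, 6 lay within 5 kb of the TSS. One lay 12 bp from the TSS itself, in exon 1 of the noncoding gene, and scored 1049.6 with ab1, 592 with ab2 and 86.9 with ab3. The strongest was 3938 bp downstream, in intron 2 of Gm36756, at 3064 with ab1, 1017 with ab2 and 155.2 with ab3. A region 2903 bp upstream reached 1364, 637 and 122.7 in the same order. These 3 regions and 1 at 5470 bp upstream (749, 312 and 73.3) were those bound with all 3 antibodies, so that antibodies of both host species marked both sides of this TSS. Alternating with them were weak regions: 5 of the 11 had a peak of ab1 alone, with scores between 50.1 and 105.4. At 4075 bp and 1444 bp upstream such regions sat between regions bound with all 3 antibodies.

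All 11 region midpoints lay inside the body of Ccdc88c, in its introns 3, 4 and 5. If only protein-coding TSSs were counted, at any distance, each would go to Ccdc88c, at 29.5 to 58.6 kb from its TSS, 9 of them within the 50 kb limit. The same count without the limit is given for the other genes. The TSS of Ccdc88c had 1 region of its own under the same assignment.

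4930544F09Rik (chr15:58984136-58988905, plus strand) had the most regions, 15, and 4 of them lay within 5 kb. It lies in intron 3 of Mtss1, on the opposite strand, and Mtss1 encodes a protein that links membranes to actin. The region on the TSS was weak and called with ab1 alone, at a score of 50.4, in exon 1. The strong ones flanked it: 1823 with ab1, 842 with ab2 and 76.3 with ab3 at 3341 bp upstream, 1566, 1076 and 104.1 at 7397 bp upstream, and 1428, 509 and 85.0 at 8416 bp downstream. In this gene the region with the highest ab1 score was not the one with the highest score of ab2 or ab3, which was that at 7397 bp upstream. The regions formed 2 clusters, of 9 regions between 7397 bp upstream and 10331 bp downstream and of 3 regions between 43651 and 48295 bp downstream, with 3 regions in between.

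All 15 midpoints lay within intron 3 of Mtss1, whose TSS is 97.9 kb from that of the noncoding gene. By protein-coding TSSs alone, 10 would go to Ndufb9, a subunit of respiratory complex I, at 43.0 to 70.6 kb, and 5 to Mtss1, at 49.6 to 70.9 kb. Within 50 kb were 4 of the former and 1 of the latter. Closest TSS and host gene thus named different coding genes for 10 of the 15 regions. Mtss1 had 6 regions of its own and Ndufb9 had 1.

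Gm28294 (chr1:75252322-75257427, plus strand) had the most compact set, 5 regions between 4457 bp upstream and 5295 bp downstream. Its TSS falls in exon 18 of Ptprn, on the opposite strand, and Ptprn encodes a transmembrane protein of secretory granules in neuroendocrine cells. The region 572 bp upstream had the highest ab1 score, 1508, with 549 for ab2 and 54.7 for ab3, the lowest ab3 score of the 7 genes. Next to it, at 1586 bp upstream and 49 bp from its edge, a region scored 1475 with ab1 and 582 with ab2, the highest ab2 score of the gene, and had no ab3 peak. This was 1 of the 2 regions with an ab1 score of at least 1000 that ab3 did not mark. Downstream, the region at 2281 bp reached 669.6 with ab1 and 296 with ab2, and lay over exon 12 of Ptprn. The outermost regions were weaker, at 296 with ab1 and 83.2 with ab2 over exon 22, and at 50.6 with ab1 alone in intron 6.

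The TSS of Ptprn was the closest protein-coding TSS to any of the 7 genes. Ptprn starts 11.9 kb from the TSS of Gm28294 and Dnajb2, a co-chaperone, 15.9 kb from it on the other side. By coding TSSs alone, 4 regions would go to Ptprn, at 6.60 to 13.5 kb, and 1 to Dnajb2, at 11.5 kb. With all gene types in competition Ptprn itself received no region and Dnajb2 received 1.

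Gm2862 (chr15:25681798-25682125, plus strand) is a processed pseudogene of 328 bp in intron 2 of Myo10, on the same strand. Myo10 encodes a myosin that works at the tips of filopodia. All 8 regions had peaks of both ab1 and ab2 and none had a peak of ab3, and no region was called with a single antibody. With the TSSs of all annotated transcripts in place of the longest ones, 3 regions were closest to this pseudogene. The highest ab1 score was 795.5, with 269.9 for ab2, at 5296 bp upstream. The highest ab2 score was 285.4, with 590.2 for ab1, at 6846 bp upstream. Closest to the TSS was a region at 1343 bp upstream, with 492.8 for ab1 and 232.7 for ab2, so no region covered the pseudogene itself. Another pair of regions lay 32227 and 33952 bp downstream, in introns 3 and 4 of Myo10, and the first of these had 157.3 for ab1 and 224.8 for ab2.

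All 8 regions lay in Myo10, and by coding TSSs alone all would go to it, at 47.5 to 93.2 kb, with 1 of the 8 within 50 kb. The TSS of Myo10 lay 59.3 kb from that of Gm2862 and had 1 region of its own, as had Retreg1, a receptor for the turnover of endoplasmic reticulum, 161.4 kb away on the other side.

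C030013C21Rik (chr11:80507410-80509106, minus strand) had a pattern of its own, with 2 of its 10 regions within 5 kb and its strongest region far away. It lies in intron 21 of Myo1d, a class I myosin gene of the same strand. At 42689 bp upstream a region scored 3100 with ab1, 2059 with ab2 and 282.3 with ab3, the highest score of each antibody in the 64 regions. The ab1 score of 3100 was shared by 661 peaks of its list with 69 above it, so its rank among the strongest peaks is not resolved, whereas 376 peaks of ab2 scored higher. The second strongest region lay 9666 bp upstream, at 1453, 957 and 68.4. The third with an ab1 score of at least 1000 lay 4601 bp downstream, at 1089 with ab1 and 476 with ab2, and is the other that ab3 did not mark. On the TSS, 228 bp into exon 1, a region scored 309.6 with ab1, 66.6 with ab2 and 57.8 with ab3, one of the few with an ab3 peak at a low ab2 score.

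Host gene and closest coding TSS were again different genes. All 10 regions lay in intron 21 of Myo1d, whose TSS is 270.9 kb upstream and had 1 region, called with a single antibody. By coding TSSs alone, all 10 would go to Cdk5r1, at 21.9 to 78.5 kb, with 5 of them within 50 kb. Cdk5r1 encodes p35, the neuronal activator of the kinase CDK5, and its TSS lies 32.1 kb from that of C030013C21Rik. Under the assignment to all gene types it had 5 regions of its own, all with at least 2 antibodies, 3 of them within 5 kb.

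6430584L05Rik (chr6:55396887-55412285, plus strand) is an intergenic gene, and none of its 6 region midpoints lay in a protein-coding gene. The region on the TSS, 30 bp upstream, was weak, at 60.1 with ab1 and 124.1 with ab2, and had no ab3 peak. On either side were stronger ones with all 3 antibodies: 742, 489 and 94.5 at 1734 bp upstream and 1159.9, 648 and 109.1 at 2642 bp downstream, in intron 1. Another region with all 3, at 7978 bp upstream, scored 1134, 688.3 and 78.2. The strongest region was thus at 2642 bp downstream with ab1 and ab3 and at 7978 bp upstream with ab2. The region at 2642 bp downstream was also the widest of the 64, at 2155 bp.

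The upstream coding neighbour was Ghrhr, the receptor of growth hormone releasing hormone, with its TSS 20.5 kb away. By coding TSSs alone all 6 regions would go to it, at 12.6 to 34.0 kb, while with all gene types it had none. Downstream the nearest was Adcyap1r1, a receptor of the neuropeptide PACAP, 55.1 kb away and with 8 regions of its own.

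2700046A07Rik (chr18:62751674-62756315, minus strand) is the other intergenic gene, with 9 regions, 8 of them upstream of the TSS. Closest to the TSS, at 1151 bp upstream, a region scored 1363 with ab1, 855 with ab2 and 174.5 with ab3, the highest ab3 score of the gene. At 5383 bp upstream the scores were 2109, 937 and 140.8, the highest of the gene for ab1 and ab2. Farther out, at 47998 bp upstream, a region scored 1278, 433 and 127.3. In between lay weaker regions, such as that at 11667 bp upstream with 62.6 for ab1 and 54.8 for ab3, the single region marked by ab3 without ab2.

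The nearest protein-coding TSS was that of Spink13, a serine protease inhibitor gene, 14.9 kb away, to which all 9 regions would go by coding TSSs alone, at 10.1 to 62.9 kb, 7 of them within 50 kb. It had 3 regions of its own. On the other side the nearest was Apcdd1, an inhibitor of Wnt signalling, 165.9 kb away, with 2 regions. At the 50 kb limit, the members just inside were the outermost region of 4930544F09Rik at 48.3 kb, with 364 for ab1 and 149.6 for ab2, and that of 2700046A07Rik at 48.0 kb, with scores as given. Just outside were a peak of ab2 at 54.9 kb, with a score of 269.8, and a peak of ab1 at 55.1 kb, with 488.8, both of 2700046A07Rik.

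Over all 7 genes, 49 of the 64 region midpoints lay in the body of a protein-coding gene, or 76.6%, where 54.8% of all regions did. The share is one of loci, since all regions of 5 genes and none of the other two lay in a coding gene, and it follows from where these genes are annotated. The 5 host genes were Ccdc88c, Mtss1, Myo10, Myo1d and Ptprn. Of them 47 were intronic and 2 exonic, both in Ptprn. Inside the noncoding gene's own longest transcript lay 12 regions, 5 of them over an exon. The median distance of a region to the closest protein-coding TSS was 45.9 kb.

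The extended E-box was central, that is within the 200 bp around the midpoint, in 40 of the 64 regions, or 62.5% (interval 50.3 to 73.3). In the genome it was in 58.6% of the region centres, which lies within that interval. Windows of 200 bp that start 1000 bp outside each region, and lie in no other region, held it in 20 of 86 cases (23.3%), against 21.5% in the genome. Of the 128 flank windows, 42 lay in a neighbouring region and were left out of that share. The 1 region without any extended E-box within its bounds was that 1734 bp upstream of 6430584L05Rik. Regions held 2.54 of them per kb of sequence, against 2.29 per kb over all regions of the genome. Sequence was not used in choosing the genes.

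The share with a central motif had wide, overlapping intervals across numbers of antibodies and scores. It was central in 8 of 12 regions with 1 antibody, in 21 of 34 with 2 and in 11 of 18 with 3. Among the 16 regions with an ab1 score of at least 1000 it was central in 8 (50%, interval 28.0 to 72.0, against 58.2% of such regions in the genome), and among the other 48 in 32 (66.7%, interval 52.5 to 78.3), so the intervals overlap. All 16 strong regions held the general CANNTG element in the centre, as did 83.7% of regions of this strength in the genome, and an extended E-box within the region, as did 97.1%. In the 8 without a central one it lay 100 to 468 bp from the midpoint. Locus by locus, the strong regions with a central extended E-box were 3 of 3 at Gm36756, 2 of 3 at 2700046A07Rik, 1 of 2 at 6430584L05Rik and at Gm28294, 1 of 3 at C030013C21Rik and none of 3 at 4930544F09Rik.

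**Figure D5:**
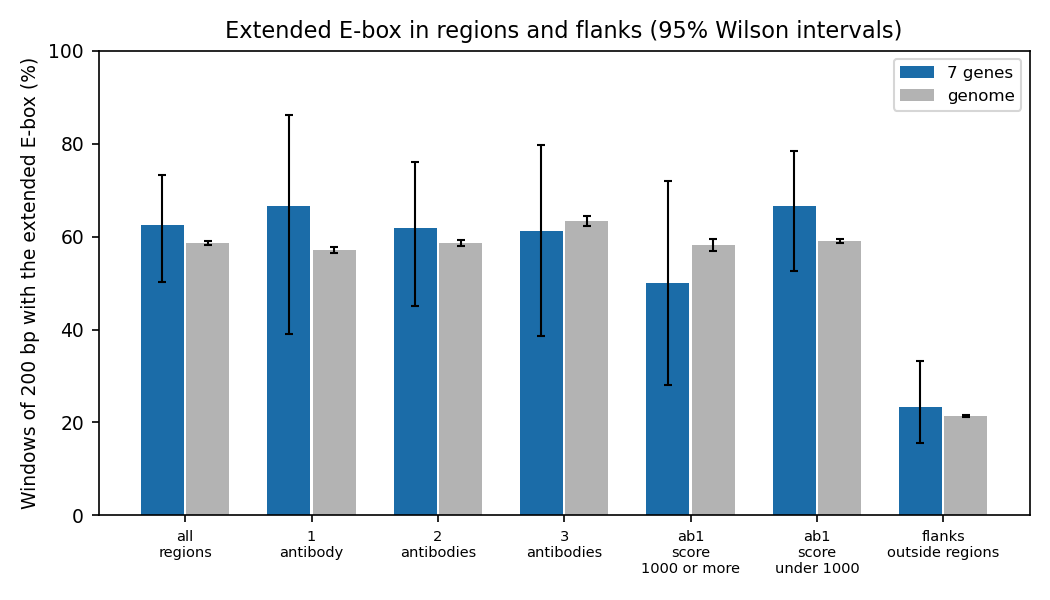
Percentage of 200 bp windows that hold the extended E-box (y axis), for the regions of the 7 genes in blue and all regions of the genome in grey, by number of antibodies, by ab1 score and in flanks outside any region, with 95% Wilson intervals. The blue bars of the region classes run from 50% to 66.7% with overlapping intervals, and the flank bar stands at 23.3%.

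Of the forms of the E-box, CAGATG was found in 29 of the 64 centres (45.3%, against 41.9% in the genome), CAGCTG in 20 (31.3%, against 27.8%) and CATATG in 5 (7.81%, against 11.1%), both strands counted. Among the forms outside the extended motif, CACCTG was in 19 centres (29.7%, interval 19.9 to 41.8, against 18.4% in the genome) and CAAGTG in 14 (21.9%, interval 13.5 to 33.4, against 11.4%). Other forms had lower shares than in the genome, but each interval held the genome share. CAACTG was in 3 centres (4.69%, interval 1.61 to 12.9, against 11.6%) and CAAATG in 6 (9.38%, interval 4.37 to 19.0, against 14.2%). CACGTG and CAATTG were in 1 each (1.56%, interval 0.276 to 8.33, against 3.98% and 2.33%). The form CACATG was in 12 (18.8%, against 17.0%). The 10 forms were looked at without a test. Of the other elements counted, TTGGCA, the core bound by nuclear factor I proteins, was in 13 centres (20.3%, against 19.6%), TAATTA, a homeodomain core, in 5 (7.81%, against 5.97%) and ACAATGG, a Sox element, in 3 (4.69%, against 2.19%). The T-box element AGGTGTGA was in none of the 64 centres, which allows a share of up to 4.69% when 3 counts are taken as the limit and up to 5.66% by the Wilson interval, against 1.22% in the genome. The centres had a median GC content of 53.0% and the flanks 49.1%, against 51.0% and 44.8% in the genome.

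Promoter sequences of 300 bases, from 250 bp before to 50 bp after the start, were found in the RefSeq table of this build for 3 of the 7 genes. That of 6430584L05Rik held 1 extended E-box, and those of Gm36756 and C030013C21Rik held none, where 26.3% of all promoters in the table held one. The copy at 6430584L05Rik is the CAGATG site printed above for its start.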

How the data were processed

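Peaks of 3 NEUROD2 ChIP-Seq libraries were used. Per the labels and the study's methods, the authors mapped single-end reads to mm10 with Bowtie, removed duplicates and multiply mapped reads, and called peaks per antibody with MACS with the GFP precipitate of the matching host as control. The deposited score is 10 times the −log10 p-value of a peak, without scaling between libraries, and the deposited files hold peaks only, so the reads behind each peak were not seen. From there, peak midpoints were assigned to the closest TSS of the longest-span transcript of each gene (GENCODE release M21, chromosomes 1 to 19, X and Y) within 50 kb, and peaks overlapping by at least 1 bp were merged. Positions count from 1. The reference genome is not that of BALB/c, so motif changes particular to this strain are missed. Shares carry 95% Wilson intervals.

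No test between groups was run, since there is 1 library per antibody and the GFP libraries had no peak list among the files used here. The members and lists were chosen with earlier results of these data known. Named were the 7 genes, their nearest protein-coding neighbours, hosts and coding genes with the closest TSS. Also named were the 3 noncoding genes most similar in the sums of each antibody's own peaks. The regions named were those with the highest score, closest to a TSS or at the distance limit. Other regions, the gene H2af-ps and single motif forms were named after their values were seen. One neighbouring gene is not reported here. Alternatives were a score of at least 100, an overlap of 50% of the shorter peak and each antibody left out. Others were region midpoints in place of peak midpoints, all annotated transcripts, only protein-coding genes and the 7 genes competing for peaks, and a limit of 10 kb. For the E-box share alone, other motif definitions and windows were used, among them a window centred on the midpoint of the highest peak. Figures were drawn with matplotlib 3.10.9, sequences read with pysam 0.24.0, and tables computed in Python 3.11.15 with pandas 2.3.3 and numpy 2.4.6 and, for intervals and correlations, scipy 1.17.1. The merging, assignment and motif steps were tested on simulated data.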

Additional observations from a re-analysis of the deposited data

How the results depend on the processing

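Of 127 values recomputed under 14 alternative settings, 111 moved by less than their counting interval or stayed within 1.5 times the reported count, and 16 moved further. A distance limit of 10 kb gave 40 regions in all, 5 for 2700046A07Rik, 8 for 4930544F09Rik, 4 for C030013C21Rik and 5 for Gm2862, with an ab1 median score of 603.9; fewer regions enter by construction. A score of at least 100 left 8 regions with all 3 antibodies, 7 regions at Gm36756 and an ab3 median of 134.1. With the TSSs of all annotated transcripts Gm2862 had 3 regions. Any CANNTG was central in 90.6% of regions, and the extended E-box was in 81.3% of the central 400 bp and in 98.4% of whole regions. With each antibody left out in turn, Gm36756 had 6 to 11 regions, 6 without ab1, and regions with at least 2 antibodies numbered 18 to 51, namely 18 without ab1, 19 without ab2 and 51 without ab3; the number with 3 antibodies could not be given there. No paired analysis was possible because the GFP group had no peak list and no test was run. Peak lists carry no depth, so a missing ab3 peak does not show missing binding.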
